A study of Homo sapiens with 4 samples.

Results

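The SWI/SNF chromatin remodelling complexes are encoded in human cells by a set of 31 genes, which were followed here through the open chromatin of LNCaP prostate cancer cells and of LNCaP cells resistant to enzalutamide. The genes were chosen by name as known subunits and associated factors of the complex, not by any measured value, and they are 31 of the 20037 protein-coding genes and 59679 genes on the main chromosomes of the RefSeq annotation. The assay was ATAC-seq, which uses a transposase to cut and tag DNA wherever chromatin is open. There were 2 libraries of LNCaP, a human line derived from a lymph node metastasis that responds to androgen, labelled as wild type, and 2 libraries labelled LNCaP-resistance, which are resistance cells treated with enzalutamide, a drug that blocks androgen signalling. The labels name no subline and no dose for the resistant libraries, and resistance and the presence of the drug cannot be told apart. Both groups come from 1 parental line, all libraries were made from bulk cells, and the 2 libraries of a group carry the labels repeat1 and repeat2, with no statement on whether they were separate cultures.

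SWI/SNF complexes use the energy of ATP hydrolysis to slide or evict nucleosomes and so open DNA for transcription factors. One of the ATPases, SMARCA4 (BRG1) or SMARCA2 (BRM), is joined by core subunits and by a module of actin-related proteins, and further subunits set the complex apart as canonical BAF, with an ARID1 and a DPF protein, as PBAF, with ARID2, PBRM1, BRD7 and PHF10, or as non-canonical BAF, with BRD9 and BICRA or BICRAL. When progenitor cells become neurons, subunits are exchanged: ACTL6A gives way to ACTL6B, PHF10 and DPF2 to DPF1 and DPF3, and SS18 to SS18L1.

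Each library is represented by the summits of its peaks as the authors called them, 1 position per peak, scored on a −log10 scale of significance. The lists held 117245 and 107344 summits for LNCaP and 70866 and 45618 for resistant cells, and they give no read counts, so the depth behind them is unknown. A summit was therefore placed by its percentile, the percent of the library's own summits with an equal or lower score, and a gene without a summit was set to 0. Since a wide peak has 1 summit, a library without a summit at a site may still have had a peak over it with its summit elsewhere. In bulk cells, a site open in fewer cells and a site less open in each cell cannot be told apart. An exact two-sided permutation test of 2 libraries against 2 cannot go below p = 0.333, so the values of single genes are described against the spread between replicates, and a test was made only for regions with a summit in all 4 libraries, with limma across all 31833 such regions. As a check of the label, a summit lay near an end of the luminal prostate genes KLK2, KLK3, HOXB13 and FOLH1 in every library, while KRT5 of basal cells and PTPRC of blood cells had none in any. KLK3, which encodes the prostate-specific antigen, was at percentiles 4.79 and 3.46 in LNCaP against 82.7 and 60.6 in resistant cells, and 5 of 5 neuroendocrine genes also had a summit in every library, so that presence of a summit does not tell these cell types apart. KRT14 and the blood and stromal genes CD3E, PECAM1 and COL1A1 did have one in every library. Their part in the results was not tested.

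The promoters of 25 of the 31 genes could be matched to RefSeq sequences of GRCh38.p14, each running from 250 bases before to 50 bases after the outermost start site. Those of SMARCA4, ACTL6B and DPF1 are shown because their summits moved most among the ATPases and the subunits of the neural exchange. Each is written 5′ to 3′ along the gene's own strand, with matches to the SP/KLF motif GGGCGG on either strand in capitals.
SMARCA4, plus strand, chr19:10960780-10961079: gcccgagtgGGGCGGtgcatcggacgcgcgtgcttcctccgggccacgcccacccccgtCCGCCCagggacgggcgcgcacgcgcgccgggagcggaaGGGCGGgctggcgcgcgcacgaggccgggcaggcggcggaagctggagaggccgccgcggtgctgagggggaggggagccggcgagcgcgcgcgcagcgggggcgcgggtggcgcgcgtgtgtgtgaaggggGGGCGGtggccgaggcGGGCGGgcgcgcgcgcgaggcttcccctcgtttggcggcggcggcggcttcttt
ACTL6B, minus strand, chr7:100656399-100656698: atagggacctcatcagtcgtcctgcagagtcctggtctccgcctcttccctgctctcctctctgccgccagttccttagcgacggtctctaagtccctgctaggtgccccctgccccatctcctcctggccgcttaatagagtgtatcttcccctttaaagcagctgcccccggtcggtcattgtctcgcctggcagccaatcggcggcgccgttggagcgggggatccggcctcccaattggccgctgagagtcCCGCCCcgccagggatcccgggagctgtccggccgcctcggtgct
DPF1, minus strand, chr19:38229646-38229945: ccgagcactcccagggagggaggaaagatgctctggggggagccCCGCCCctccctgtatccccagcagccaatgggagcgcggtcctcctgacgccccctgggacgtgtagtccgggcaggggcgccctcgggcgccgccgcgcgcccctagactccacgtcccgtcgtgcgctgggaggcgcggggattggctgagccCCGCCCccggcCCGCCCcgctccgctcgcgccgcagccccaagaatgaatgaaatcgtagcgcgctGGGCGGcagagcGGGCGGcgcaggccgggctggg

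The SMARCA4 and DPF1 windows each held 5 such matches and the ACTL6B window held 1. The motif was found in 21 of 25 member promoters (84.0%), against 45.0% of all 35116 promoters of the same length. The member promoters were also rich in G and C, with a median GC content of 68.3% (range 37.7% to 85.3%) against 58.7% over all promoters, and SMARCA4, at 81.3%, was at or above 98.6% of them. The YY1 motif AAGATGGC was present in 3 member promoters (12.0%, all promoters 2.89%), namely SMARCD1, DPF2 and BCL11B, and the E-box CACGTG in 3 (12.0%, all promoters 7.26%), namely BCL7B, PBRM1 and BCL11B. The AP-1 motif TGACTCA and the ETS motif CCGGAAG were each present in 2 (8.0%, all promoters 4.95% and 10.3%), SMARCA2 holding both. Neither the CRE motif TGACGTCA (1.85% of all promoters) nor the NRF1 motif GCGCATGC (3.05%) was found in any of the 25 windows. Both strands were searched, no motif holds another, and a match describes letters only.

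Nearly all SWI/SNF genes had open chromatin at an end of the gene in both cell types. A summit lay within 3 kb of an end in all 4 libraries for 29 of the 31 genes, against 80.9% of the 16896 protein-coding genes with such a summit in any library, and the other 2, ACTL6B and DPF1, had one in 3 libraries. The strongest of these summits was higher in both resistant libraries than in both LNCaP libraries for 10 genes (32.3%; 23.8% of protein-coding genes), lower for 7 (22.6%; 28.4% of protein-coding genes) and overlapped for 14. The median change over the 31 genes was 3.77 percentile points, with 3.11 points between the libraries numbered 1 and 3.34 points between those numbered 2, against -0.44 points over protein-coding genes. The lists differ in length, and this split moved with the scaling: with equal numbers of summits per library 24 genes were higher and 3 lower (61.6% and 8.7% of protein-coding genes), and with percentiles among the regions found in all 4 libraries, which 27 genes had, 20 were higher and 3 lower (51.2% and 11.3%). The median change was then 19.7 and 16.3 points, against 13.2 and 7.56 points over protein-coding genes. Leaving out LNCaP replicate 1 gave 17 higher genes (36.2% of protein-coding genes), leaving out resistant replicate 2 gave 20 (44.7%), and leaving out resistant replicate 1 gave 14 lower genes (48.8%). The median change was 0.86 points without LNCaP replicate 2, against -0.94 over protein-coding genes.

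The summits of 26 genes could be told apart by strand. At the 5′ end 8 were higher (30.8%; 26.4% of protein-coding genes), 6 lower (23.1%; 24.4%) and 12 overlapped, with a median change of 4.47 points against 0.05 over protein-coding genes. A 5′ summit was present in all 4 libraries for 24 of these genes, a 3′ summit for 5, and 14 had no 3′ summit in any library. Of the 90 regions at ends of the 31 genes, 30 also lay within 3 kb of an end of another protein-coding gene. When summits closer to such a neighbour were left out, an alternative added after the values were seen, 7 genes were higher and 7 lower, against 23.2% and 28.2% of protein-coding genes, and the median change was 0.92 points, against -0.69. Both counts were near or below the background.

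**Figure D1:**
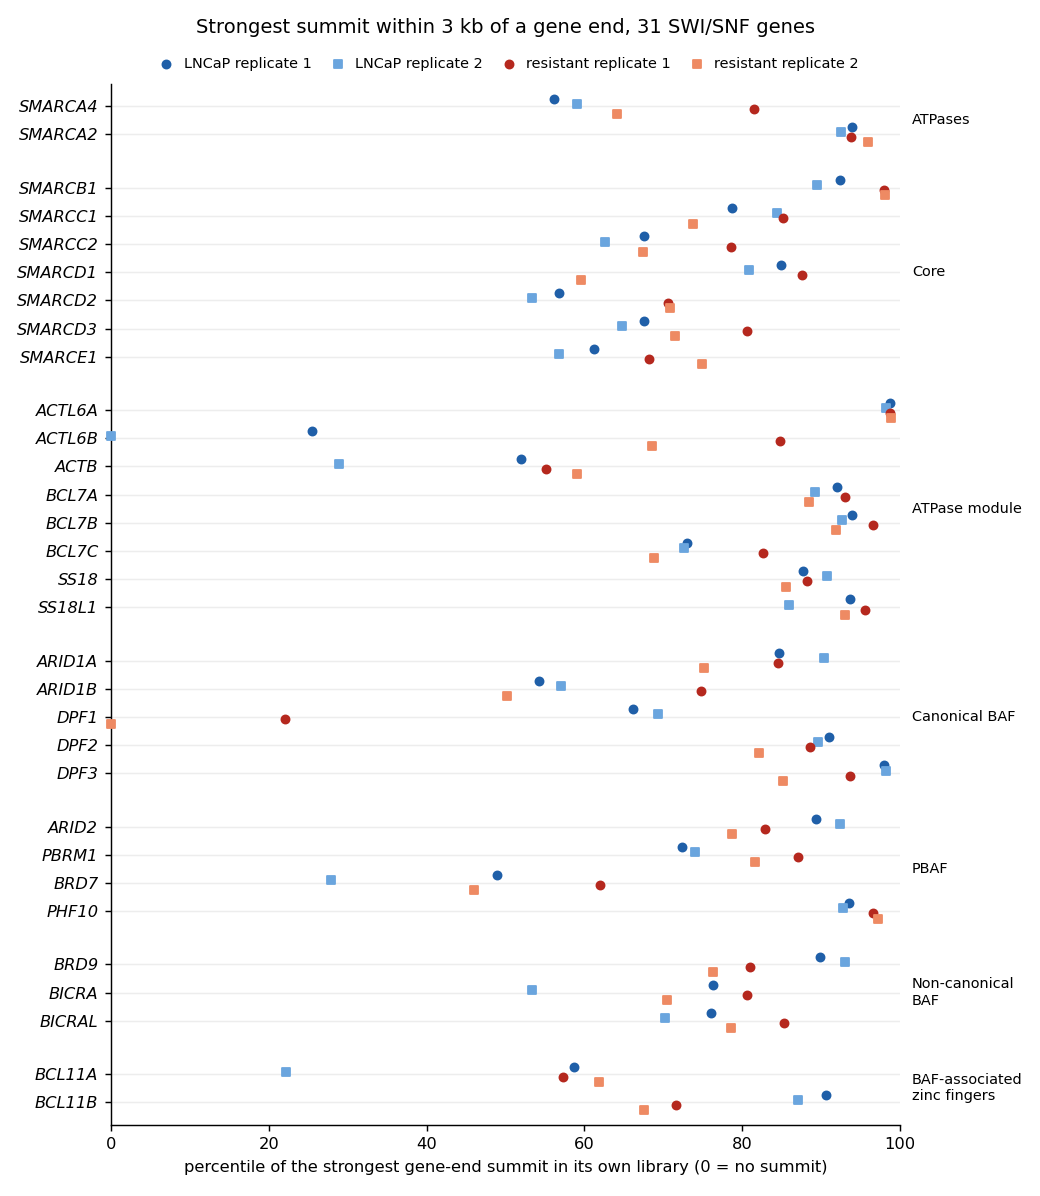
Percentile of the strongest summit within 3 kb of either gene end, for the 31 SWI/SNF genes in the 4 libraries, with genes grouped by their place in the complex and 0 marking no summit. Points are single libraries, set slightly apart in height for legibility. Resistant libraries sit to the right for ACTL6B (84.8 and 68.5 against 25.4 and 0) and to the left for DPF1 (22.0 and 0 against 66.1 and 69.4) and BCL11B, while ACTL6A stays between 98.2 and 98.9.

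At the 5′ end of SMARCA4, on chromosome 19 from 10961030 to 11062273, the strongest summit was at percentiles 53.8 and 53.0 in LNCaP against 81.5 and 64.2 in resistant cells, a mean of 53.4 ± 0.577 (SD, n = 2) against 72.8 ± 12.3 (SD, n = 2). The groups did not overlap, and the difference came to 19.4 points, against a spread of 8.68 (pooled SD of the replicates). The summit lay between 274 and 299 bp upstream of the start in 3 libraries and 587 bp upstream in LNCaP replicate 2. At the 3′ end both LNCaP libraries had a summit about as strong, at percentiles 56.1 and 59.1, between 2666 and 2694 bp beyond the gene, and neither resistant library had one.

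SMARCA2, the alternative ATPase, was among the strongly open promoters in every library, at percentiles 93.9 and 92.5 in LNCaP against 93.8 and 95.9 in resistant cells. These overlapped, with a change of 1.62 points and a pooled SD of 1.25. Inside the gene, 5 of its 7 regions were found in LNCaP alone, among them one over its internal start sites at 2157662 and 2158464 on chromosome 9. Summits within 500 bp of the first of these were at percentiles 51.1 and 33.3 in LNCaP and absent from both resistant libraries.

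Among the core subunits 4 of 7 genes were higher in resistant cells and 0 lower, beside 23.8% and 28.4% of protein-coding genes. Without resistant replicate 1, 2 of the 7 were lower. SMARCD2, a BAF60 subunit that links the complex to transcription factors, rose at its 5′ end from 56.4 and 53.3 to 70.6 and 70.9, by 15.9 points with a pooled SD of 1.54. Its paralogue SMARCD3 was at 67.6 and 64.8 in LNCaP against 80.6 and 71.4 in resistant cells, and SMARCE1, an HMG-box subunit that binds DNA, at 61.2 and 56.8 and at 68.2 and 74.9. Both were thus above LNCaP in each resistant library, by 9.85 and 12.5 points. SMARCB1, the subunit lost in rhabdoid tumours, was at 92.4 and 89.5 in LNCaP against 98.0 and 98.2 in resistant cells, but this summit lay beyond its 3′ end and 196 bp from an end of DERL3. At the 5′ end of SMARCB1 the percentiles were 67.3 and 52.1 against 34.0 and 67.6, which overlapped.

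The remaining core genes overlapped between the groups. SMARCC1, a scaffold subunit, was at 78.7 and 84.5 in LNCaP against 85.2 and 73.8 in resistant cells. Its partner SMARCC2 was at 67.5 and 62.6 and at 78.5 and 67.5, and SMARCD1 at 84.9 and 80.8 and at 87.6 and 59.6. In SMARCD1 the resistant libraries were farther apart from each other than either was from LNCaP replicate 2.

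The actin-related subunits held the gene with the largest change of the 31. ACTL6B, the neuronal subunit that replaces ACTL6A in neural cells, had a summit between 15 and 36 bp inside its 5′ end at percentile 25.4 in LNCaP replicate 1, none in LNCaP replicate 2, and summits at 84.8 and 68.5 in the resistant libraries. All of these lie within the promoter window shown above. LNCaP averaged 12.7 ± 18.0 (SD, n = 2) and resistant cells 76.7 ± 11.5 (SD, n = 2), a change of 63.9 points with a pooled SD of 15.1, and it was 59.3 points within replicate 1 and 68.5 within replicate 2. A second site, 3296 bp inside ACTL6B, had a summit in all 4 libraries, at 61.6 and 74.6 in LNCaP against 66.0 and 45.9 in resistant cells, which overlapped. ACTL6A, the form of dividing cells, was at 98.7 and 98.2 in LNCaP against 98.7 and 98.9 in resistant cells, the most open gene end of the set, with a change of 0.33 points.

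ACTB, the cytoplasmic actin that is also part of the complex, was at 52.0 and 29.0 in LNCaP against 55.2 and 59.0 in resistant cells, with its summits at different sites in each group. Its change of 16.6 points was above the pooled SD of 11.7, and only 3.17 points lay between the libraries numbered 1. SS18, whose fusion drives synovial sarcoma, was at 87.7 and 90.7 in LNCaP against 88.2 and 85.5 in resistant cells, which overlapped. Its neuronal paralogue SS18L1 was highest beyond its 3′ end, 51 bp from an end of MTG2, at 93.7 and 85.9 against 95.6 and 93.0. At the 5′ end of SS18L1 the groups did not overlap, with 73.0 and 69.5 in LNCaP and 77.1 and 80.8 in resistant cells. The change was 7.7 points with a pooled SD of 2.54. This site too lay near another gene, 31 bp from an end of PSMA7, so the change cannot be assigned to SS18L1 alone.

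At BCL7A and BCL7B, whose products sit in the ATPase module, the position of the strongest summit differed more than its rank. Beyond the 3′ end of BCL7A both LNCaP libraries had a summit, 1171 and 1277 bp from the gene, at percentiles 92.0 and 89.2, and both resistant libraries had one farther out, at 2230 and 2233 bp, at percentiles 93.0 and 88.5. Each of the sites was found in 1 cell type alone. At BCL7B a summit 341 and 345 bp upstream of the start, at 93.9 and 92.7, was found in LNCaP alone, and the strongest resistant summits, at 96.6 and 91.9, lay 485 and 523 bp inside the gene, where LNCaP had weaker ones at 91.3 and 87.3. BCL7C overlapped, at 73.0 and 72.6 in LNCaP against 82.7 and 68.8 in resistant cells.

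The canonical BAF subunits were the group with the most lower genes, 4 of 5, beside 28.4% of protein-coding genes. With summits closer to another protein-coding gene left out, 2 of the 5 were lower. Among the shared regions, which 4 of them had, 2 were higher and 1 lower, and the group's median change moved from -7.6 points to 0.29 points. With equal numbers of summits 2 of the 5 were higher and 2 lower (61.6% and 8.7% of protein-coding genes), and the median change was 5.89 points. DPF1, the neuronal zinc finger subunit, had a summit 48 bp upstream of its start in both LNCaP libraries, at percentiles 66.1 and 69.4, a weaker one 28 bp inside the gene in resistant replicate 1, at 22.0, and none in resistant replicate 2. LNCaP thus averaged 67.7 ± 2.28 (SD, n = 2) against 11.0 ± 15.6 (SD, n = 2), a change of -56.7 points with a pooled SD of 11.1. With equal numbers of summits the change was -20.4 points. As in ACTL6B, a site inside the gene did not follow the promoter. It lay 5431 bp from the start and was at 86.7 and 76.1 in LNCaP against 86.3 and 82.1 in resistant cells.

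The other DPF genes were open in every library. DPF3, a neural and muscle subunit that reads histone acetylation, was at 98.0 and 98.2 in LNCaP against 93.7 and 85.2 in resistant cells, a change of -8.62 points with a pooled SD of 4.28. DPF2, the widely expressed form, was strongest 52 bp from an end of TIGD3, at 91.1 and 89.6 against 88.6 and 82.1. Its own 5′ end was at 82.3 and 70.4 in LNCaP against 84.2 and 80.4 in resistant cells, which overlapped, and the change of 5.98 points had the opposite sign. Of the subunits exchanged in neurons, ACTL6B and DPF1 thus moved in opposite directions.

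ARID1A, the DNA-binding subunit often mutated in cancer, was at 84.6 and 90.3 in LNCaP against 84.6 and 75.2 in resistant cells. It was counted as lower, by 7.6 points against a pooled SD of 5.5, but the nearest values of the groups were equal to 3 digits, and its change was 6.76 points upward with equal numbers of summits. ARID1B overlapped, at 54.2 and 57.0 in LNCaP against 74.8 and 50.2 in resistant cells. No library had a summit within 500 bp of its outermost start, whereas all 4 had one at its inner start, at 156777378 on chromosome 6, at 48.5 and 52.6 in LNCaP against 74.8 and 50.2 in resistant cells.

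PBAF held genes of either direction. PBRM1, a bromodomain subunit, was at 72.3 and 74.0 in LNCaP against 87.1 and 81.6 in resistant cells. The change was 11.2 points with a pooled SD of 2.83. In resistant replicate 1 the summit lay 306 bp inside PBRM1 and 313 bp from an end of GNL3. ARID2, which targets PBAF, was at 89.4 and 92.4 in LNCaP against 82.9 and 78.7 in resistant cells, a change of -10.1 points with a pooled SD of 2.58, at a site between 2028 and 2087 bp outside the gene. The groups of ARID2 overlapped within 1 kb, where the change was -3.96 points, and with equal numbers of summits, where it was -1.39 points. PHF10, the PHD finger subunit of dividing neural progenitors, was higher beyond its 3′ end, at 93.5 and 92.7 against 96.6 and 97.2, where the site lay 1 bp from an end of C6orf120. Within 3 kb of its own 5′ end PHF10 was lower, at 72.7 and 75.0 in LNCaP against 43.2 and 65.2 in resistant cells. These summits lay between 1434 and 1469 bp inside the gene, in a shared region that was not called (limma adjusted p = 0.559). Within 500 bp of the start, a summit was found only in LNCaP replicate 1, at 8.58, and in resistant replicate 1, at 42.0. BRD7 overlapped, at 48.9 and 27.9 against 62.0 and 46.0.

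Of the non-canonical subunits, BRD9 changed in the arrangement of its summits. The strongest LNCaP summits, at 89.8 and 93.0, lay 1507 and 1463 bp inside the gene, and a further LNCaP summit 1107 bp upstream was at 89.0 and 91.1. Neither site had a summit in resistant cells. Between them, 75 bp upstream of the start of BRD9 and 8 bp from an end of TRIP13, all libraries had a summit, at 65.4 and 65.5 in LNCaP against 80.9 and 76.3 in resistant cells. The strongest summit of BRD9 was thus lower by 12.8 points in resistant cells, with a pooled SD of 2.81, while the site at its start was higher by 13.1 points, and the sign of its change depends on which is taken.

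BICRAL was higher, at 76.0 and 70.2 in LNCaP against 85.3 and 78.5 in resistant cells, at a site 12 bp from an end of TBCC. Its paralogue BICRA overlapped, at 76.2 and 53.3 against 80.6 and 70.5. BCL11B, a zinc finger protein that associates with BAF and acts in T cells and neurons, was at 90.6 and 87.0 in LNCaP against 71.6 and 67.5 in resistant cells. Its change of -19.3 points was -19.1 and -19.5 within the replicates, against a pooled SD of 2.7, and the sign was kept among the shared regions and in the other settings tried. BCL11A overlapped, at 58.7 and 22.1 in LNCaP against 57.3 and 61.9 in resistant cells.

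Regions with a summit in all 4 libraries allowed a test of the score itself. Windows of 250 bp to each side of every summit were merged across libraries, and the scores of shared regions were ranked within each library, turned into normal scores and compared with limma at an adjusted p of 0.05, Benjamini-Hochberg over all shared regions. Among the 37 shared regions at ends of SWI/SNF genes, 31 ranked higher in resistant cells, with a median change of 16.3 points among shared regions, against 72.8% of regions and 7.81 points at ends of protein-coding genes. The test called 4 of the 37 higher (10.8%; 11.8% at protein-coding gene ends) and 0 lower (3.1% at protein-coding gene ends). The share called was thus close to that of protein-coding genes. An unadjusted limma p under 0.05 was reached by 13 of the 37, but the share over protein-coding gene ends was not computed, so this count is not interpreted.

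The called regions at gene ends lay at both ATPase genes and at the genes of 2 core subunits. The 5′ region of SMARCA4, chromosome 19 from 10960193 to 10961006, ranked at 17.9 and 21.8 in LNCaP against 62.4 and 53.9 in resistant cells, a normal-score difference of 1.06 (95% interval 0.436 to 1.67, limma adjusted p = 0.0247). That of SMARCD2 ranked at 20.2 and 18.0 against 43.8 and 61.7 (limma adjusted p = 0.0431). In SMARCA2 a site 2194 bp inside the gene, not the one at its start, ranked at 3.63 and 14.7 in LNCaP against 43.6 and 39.3 in resistant cells (limma adjusted p = 0.0262). The site beyond the 3′ end of SMARCB1, 196 bp from an end of DERL3, ranked at 78.5 and 73.6 against 95.7 and 97.4 (limma adjusted p = 0.0202).

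These calls at gene ends were close to the threshold. The adjusted p at SMARCA4 was between 0.0545 and 0.12 in the limma fits that each left out 1 library, so none of them passed. At SMARCD2 it was 0.135 without LNCaP replicate 1, 0.202 without LNCaP replicate 2 and 0.146 without resistant replicate 2, and at SMARCA2 0.188 without LNCaP replicate 1, 0.0711 without resistant replicate 1 and 0.0529 without resistant replicate 2. At SMARCB1 limma gave 0.0607 and 0.103 without LNCaP replicate 1 and 2, 0.109 without resistant replicate 2 and 0.0669 with quantile-normalised scores.

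Inside the genes, more than 3 kb from both ends, LNCaP had more sites. The 31 genes held 147 and 134 summits there in LNCaP and 72 and 48 in resistant cells, which is 0.125% of each LNCaP list and 0.102% and 0.105% of the resistant lists. At gene ends they held 78 and 66 against 59 and 53 summits, or 0.0665% and 0.0615% against 0.0833% and 0.116%. The ends of these genes thus took a larger share of the resistant lists and their bodies a smaller one. Matching shares for all protein-coding genes were not computed, so whether this is particular to the 31 genes was not tested. At protein-coding genes 72.8% of shared end regions and 39.7% of shared inside regions ranked higher in resistant cells. Of 177 inside regions, 36 were shared by all libraries, 54 were found in both LNCaP libraries alone (30.5%; 32.6% inside protein-coding genes) and 3 in both resistant libraries alone (1.69%; 3.03% inside protein-coding genes). These shares were near those of protein-coding genes. With equal numbers of summits the regions in 1 cell type alone numbered 20 and 9, and without LNCaP replicate 2 and resistant replicate 2, left out in turn, they reached 85 for LNCaP and 11 for resistant cells. The shares inside protein-coding genes under these settings are not reported here, so these shifts are not read as particular to the 31 genes.

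ARID1B, the longest gene at 434.8 kb, held 40 of these regions, 16 of them in LNCaP alone. SMARCC1, SMARCA2, PBRM1 and BCL11B had 5 each in LNCaP alone. No region was found inside SMARCE1, ACTL6A, DPF2, PHF10 or BRD9, and ACTB is too short to hold one. The LNCaP-only region with the highest rank lay 107.8 kb into ARID1B, chromosome 6 from 156883543 to 156884068, at percentiles 99.0 and 98.0, with no summit in either resistant library. It was the only one with a mean percentile of at least 90. The resistant-only regions were weaker: in SMARCD3, 29.1 kb from its 5′ end, at 58.8 and 50.04, in SMARCA4, 92.6 kb from its 5′ end, at 53.7 and 31.2, and in BICRAL at 12.4 and 9.58.

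**Figure D2:**
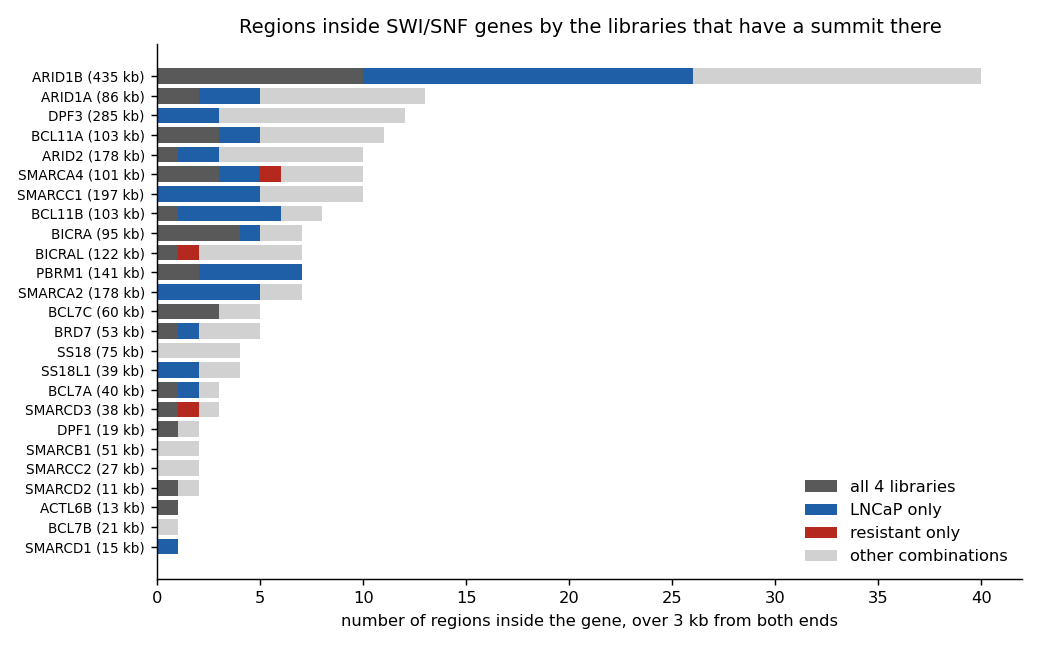
Number of regions inside each SWI/SNF gene, more than 3 kb from both ends, divided by the libraries that have a summit there, with the length of each gene in kb; genes without such a region are left out. ARID1B leads with 40 regions, 16 of them in LNCaP alone, and the resistant-only class holds 3 regions, 1 each in SMARCA4, SMARCD3 and BICRAL.

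Among the 36 shared inside regions limma called 3 higher (8.33%; 8.07% inside protein-coding genes) and 7 lower (19.4%; 19.5% inside protein-coding genes) in resistant cells. An unadjusted limma p under 0.05 was reached by 13 of the 36, again without a computed share inside protein-coding genes. The median change was -4.83 points, against -5.55 inside protein-coding genes. By normal score, both of the largest losses among these 36 regions were in SMARCA4. At 75.1 kb from its 5′ end, chromosome 19 from 11035822 to 11036345, the summit was at percentiles 99.0 and 98.7 of all summits in LNCaP against 74.3 and 65.7 in resistant cells, and its normal score differed by -1.74 (95% interval -2.35 to -1.13, limma adjusted p = 0.00291). At 81.4 kb, from 11042152 to 11042684, it was at 97.3 and 98.6 in LNCaP against 64.2 and 46.2 in resistant cells, with a difference of -1.96 (95% interval -2.59 to -1.33, limma adjusted p = 0.00215).

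In LNCaP these inside sites were the most open ones of SMARCA4, far above its promoter, and in each resistant library the promoter ranked above the site at 81.4 kb. Both losses kept their call in the alternative fits that held them, 8 for the site at 75.1 kb and 7 for that at 81.4 kb, with limma adjusted p between 0.000982 and 0.0211. Another site shared by all libraries, 16049 bp into the gene, was at 61.4 and 52.9 against 73.5 and 43.4 and was not called. The annotation used here gives gene ends and start sites but no exons, so whether the sites are intronic was not analysed here.

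**Figure D3:**
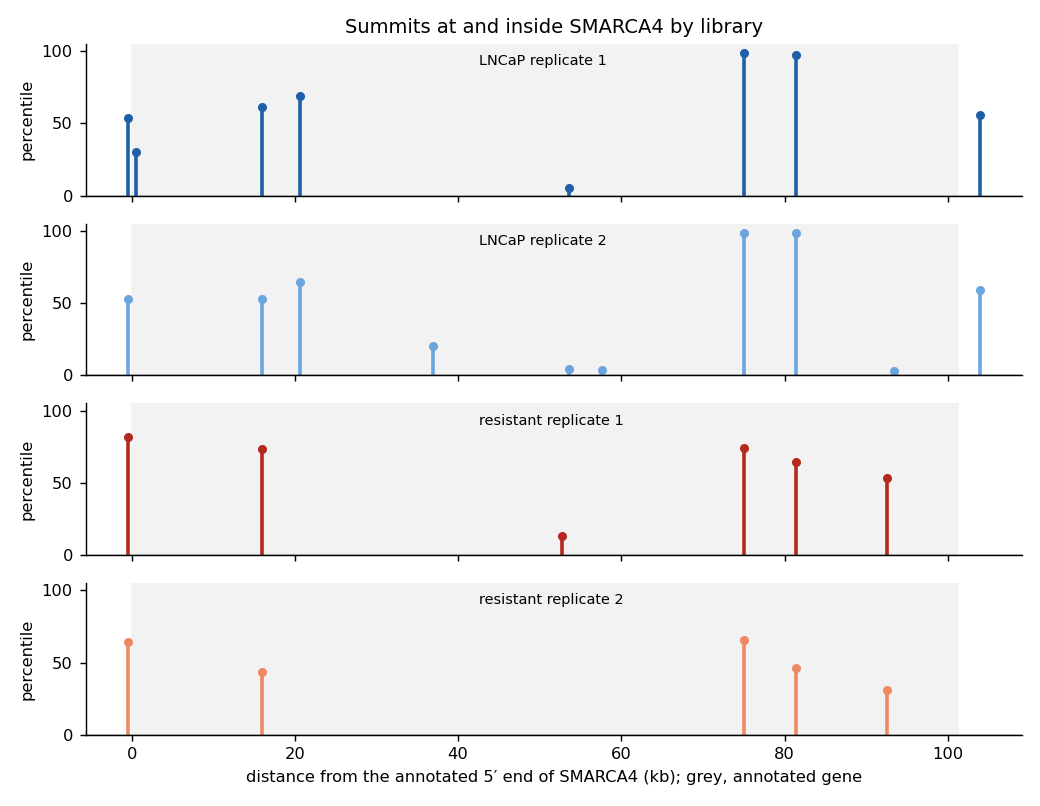
Percentile of every summit at and inside SMARCA4 in the 4 libraries, by distance in kb from its annotated 5′ end, with the gene in grey. The promoter summit is at 53.8 and 53.0 in LNCaP against 81.5 and 64.2 in resistant cells, the pair of sites at 75.1 and 81.4 kb goes from at least 97.3 in LNCaP to between 46.2 and 74.3, and the summit beyond the 3′ end is seen in LNCaP alone.

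The other called losses were in ARID1B, ARID2, BCL7C and BICRA. In ARID1B a site 179.9 kb from the 5′ end was at percentiles 85.9 and 83.0 in LNCaP against 25.5 and 25.7 in resistant cells (limma adjusted p = 0.00663, called in all 7 alternative fits that held it), and one at 422.5 kb was at 97.4 and 98.5 against 88.5 and 45.4 (limma adjusted p = 0.0272). The second call was lost without LNCaP replicate 1 (limma adjusted p = 0.0576), LNCaP replicate 2 (0.125) or resistant replicate 2 (0.216), and with log2 scores, quantile-normalised (0.0894) or median-centred (0.0627). In ARID2 a site 13.7 kb from the nearer end was at 81.5 and 76.8 against 33.0 and 23.8 (limma adjusted p = 0.0095), with 0.0505 without resistant replicate 1 and 0.0759 without resistant replicate 2. BCL7C lost rank 37.0 kb from its 5′ end, from 88.9 and 79.7 to 39.2 and 37.9 (limma adjusted p = 0.0214), and BICRA at 56.2 kb, from 66.2 and 55.8 to 21.4 and 16.5 (limma adjusted p = 0.0315). Without single libraries limma gave between 0.0695 and 0.166 for BICRA, and for BCL7C 0.102 without LNCaP replicate 1, 0.111 without resistant replicate 1 and 0.0686 without resistant replicate 2.

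The inside region with the largest gain was in SMARCD3, the BAF60 subunit known from heart and muscle. It lay on chromosome 7 from 151248971 to 151249665, 721 bp from an internal start site of the gene, and was at percentiles 18.8 and 22.0 in LNCaP against 68.4 and 73.0 in resistant cells, a normal-score difference of 1.84 (95% interval 1.14 to 2.54, limma adjusted p = 0.00408). The call held in the 7 alternative fits that included the region. A resistant-only region lay on the other side of the same start site, 674 bp from it, so that both gains of SMARCD3 flank 1 start site, within 500 bp of which no library had a summit.

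PBRM1 gained rank 6.6 kb into the gene, from 63.1 and 65.7 to 81.6 and 90.6 (limma adjusted p = 0.0276), beside the higher summit at its start. BCL11A gained 73.3 kb into the gene, from 54.1 and 27.1 to 71.9 and 51.2 (limma adjusted p = 0.0388). At PBRM1 limma gave 0.12 and 0.0911 without LNCaP replicate 1 and 2 and 0.141 without resistant replicate 2, and at BCL11A 0.3 without LNCaP replicate 2, 0.109 without resistant replicate 1 and 0.071 without resistant replicate 2. Thus 4 of the 14 called regions, 2 in SMARCA4 and 1 each in ARID1B and SMARCD3, passed the test in every alternative fit in which the region could be matched.

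**Figure D4:**
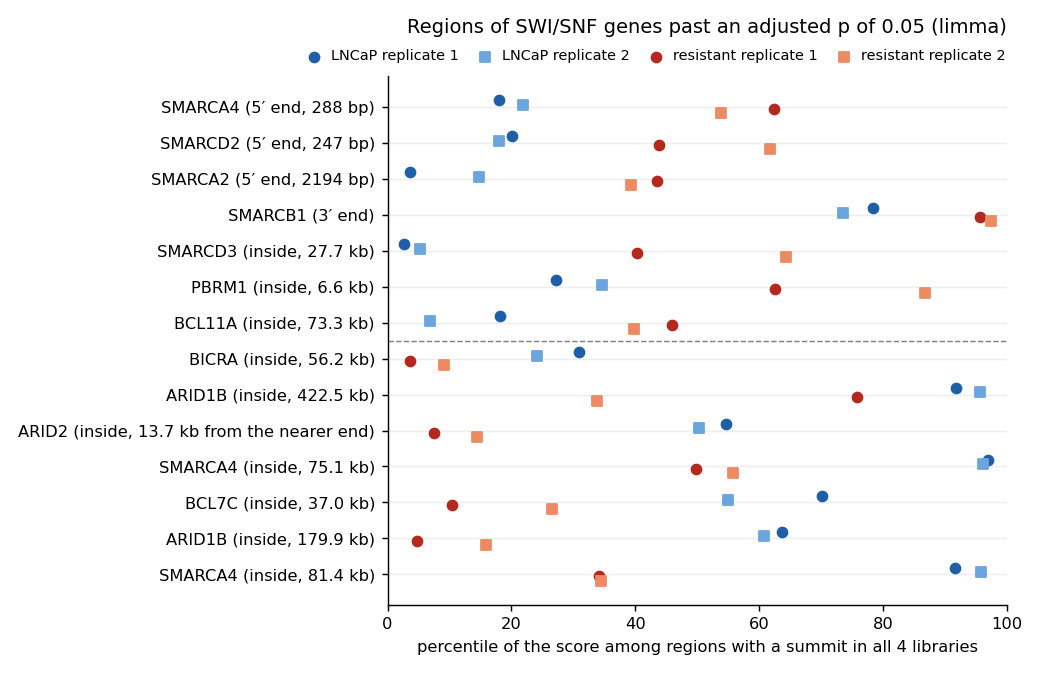
Percentile among shared regions in each library for the 14 regions of SWI/SNF genes called by limma, 7 higher above the dashed line and 7 lower below it. Labels give the distance from the 5′ end, except for ARID2 (distance from the nearer end) and SMARCB1 (marked as 3′ end). The libraries of the 2 groups do not overlap in any of them; the site of SMARCA4 at 81.4 kb goes from 91.6 and 95.8 to 34.2 and 34.5, and that of SMARCD3 from 2.61 and 5.28 to 40.3 and 64.3.

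RefSeq lists 47 start sites for the matched genes, and 13 genes have more than 1. A summit lay within 500 bp in all 4 libraries for 23 start sites, in some libraries for 16 and in none for 8. The second start of SMARCA4, the second of SMARCA2, the inner start of DPF3 and 2 of the inner starts of BCL11A were among those with none. BRD9 and PBRM1 had a summit near both of their starts in all libraries, and BCL7B near its inner start in all 4 and near its outermost start in 3.

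A list of 34 genes of other chromatin remodellers (the CHD, ISWI, INO80, SRCAP and NuRD groups) served for comparison. All libraries had a gene-end summit for 31 of the 34. In resistant cells 8 of the 34 were higher and 10 lower, close to the 23.8% and 28.4% of protein-coding genes. Their median change was -1.35 points, against -0.44 over protein-coding genes. For SWI/SNF these values were 10 and 7 of 31 and 3.77 points. SMARCA5, the ISWI ATPase, went from 81.9 and 89.3 to 96.6 and 96.6, while its paralogue SMARCA1 went from 68.9 and 51.7 to 39.8 and 9.87. CHD3 and MTA1 of the NuRD complex had summits in both LNCaP libraries, at 46.0 and 40.5 and at 63.7 and 72.1. In the resistant libraries neither had one apart from MTA1 in replicate 1, at 43.2. Other genes of that complex did not follow: MTA2, GATAD2A and GATAD2B were higher in both resistant libraries, and CHD4, MBD2, MBD3 and MTA3 overlapped. The 34 genes held 204 inside regions, 67 of them in LNCaP alone and 3 in resistant cells alone, beside 32.6% and 3.03% inside protein-coding genes. The difference between the lists of 34 and 31 genes was not tested.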

How the data were processed

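ATAC-seq was performed on 4 libraries, and summits were called by the authors on each library separately. The submitters' notes name Bowtie2 2.2.5, SAMtools 1.6, MACS2 2.2.6, deepTools 3.5.2 and HOMER 4.11 and the build hg38, with no parameters. The deposited score is on a −log10 scale and starts just above the value for 0.05; whether it comes from p-values or q-values is not given in the sources used here. The lists hold no counts, so depth, and the precision it gives, is unknown.

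Gene ends came from RefSeq (GRCh38.p14), which gives no strand; strand, start sites and promoter sequences of 26 genes came from a RefSeq promoter table. Of these, 25 had a window at the outermost start. Summits within 3 kb of either end and those inside the gene were kept apart. Windows of 250 bp on either side were merged into 150917 regions. Normal scores of shared regions were tested with limma 3.58.1 in R 4.3.3 (prior df 7.49, residual df 2) at an adjusted p of 0.05; its p-values measure the spread between these libraries, which may be technical. Other windows, distances, score minimums, scalings and a replicate block were tried, and each library was left out in turn. The rest used Python 3.11.15, pandas 2.3.3 and scipy 1.17.1. The method was tested on simulated lists.

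Genes named with values in every library were the ATPases, the neural exchange subunits, members with a summit in some libraries, with a called region, or with groups apart by 10 points or more. The other members were to be given by range and count; their values, also printed, were added after they were seen. The members and lists were chosen with earlier results of these data known. Replicate numbers are labelled as batches, so they pair the samples by label, although deviations of same-numbered libraries did not correlate (r = -0.0399 across shared regions). Some items of the marker lists are not reported here.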

Additional observations from a re-analysis of the deposited data

How the results depend on the processing

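The count of genes with a higher strongest summit in resistant cells (10) was 24 with equal numbers of summits, 20 with percentiles among shared regions, and between 10 and 20 when each library was left out. The count of lower genes (7) was 4 within 1 kb, 3 with equal numbers, 3 among shared regions, and between 7 and 14 without single libraries. The median change (3.77 points) was 2.96 within 1 kb, 19.7 with equal numbers, 8.89 with a score of at least 10, 4.47 at the 5′ end alone, 16.3 among shared regions and 0.92 without summits closer to another gene, and between 0.86 and 5.82 without single libraries. Averaging within replicate pairs gives 3.77 by construction and is no check, since the mean of paired differences equals the difference of group means. Regions inside genes in LNCaP alone (54) numbered 20 with equal numbers of summits and between 59 and 85 without single libraries, the highest without LNCaP replicate 2. Those in resistant cells alone (3) numbered 5 with a window of 100 bp, 9 with equal numbers, and between 3 and 11 without single libraries, the highest without resistant replicate 2. For both classes the shares inside protein-coding genes under these settings are not reported here. Of the limma calls, 7 higher and 7 lower became 3 and 1 with a score of at least 10 and, when each library was left out, between 1 and 5 higher and between 4 and 7 lower; the replicate block as a limma term gave 7 and 8. In the fits that left out a library, the lone library of a group is taken to vary like the other group. The shares of all regions called in these alternative fits are not reported here, nor are the numbers of member regions that entered each. These shifts in the limma counts are thus not read as particular to the SWI/SNF genes. Changes of single genes whose groups were apart turned sign for SMARCB1 (-8.90 within 1 kb, at the 5′ end and without neighbours), PHF10 (-5.80 within 1 kb, -19.7 at the 5′ end and without neighbours), BRD9 (13.1 within 1 kb, 32.8 among shared regions), DPF2 (5.89 with equal numbers, 5.98 at the 5′ end and without neighbours, 1.24 among shared regions), ARID1A (6.76 with equal numbers) and BICRAL (-6.17 without neighbours). Of those that overlapped, signs also turned for ARID1B (-19.4 within 1 kb), SMARCD1 (12.1 with equal numbers, 2.17 among shared regions), SMARCC1 (21.1 and 10.7), SS18 (10.3 and 5.64) and SS18L1 (-31.5 without neighbours), and, when single libraries were left out, for ARID1B, SMARCD1, SMARCC1, BICRA, BCL7A, BCL7B and BCL7C. The cause of these shifts was not tested. Depth is unknown, and a missing summit limits peak calls, not accessibility.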
